A study of Mus musculus with 24 samples.

Results

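Gonadal white fat of male mice was compared between the New Zealand Obese strain (NZO/HiBomDife, here NZO) and C57BL/6 (B6), with 4 arrays of each strain chosen by the strain and tissue in their titles, 8 of the 24 arrays of the series. The animals of both strains received a diet with 45% fat and were 6 weeks old at sampling, and no further allele, transgene or drug is named for either. NZO mice are a polygenic model that becomes obese early and is prone to diabetes, and B6 is the common inbred laboratory strain that stays lean by comparison. RNA with a high integrity number was labelled with the dye Cy3 and hybridised to Agilent arrays with probes of 60 bases. Brown fat arrays of the same strains, 4 per strain, served only to ask whether a strain difference in white fat was also seen in the other fat depot. The labels do not say whether each array came from its own animal, so p-values reflect only how far these samples lie apart, and part of that may be technical.

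White fat stores triglyceride in adipocytes, but the tissue also holds macrophages and other immune cells, fibroblasts, vessels and a mesothelial covering, all of which contribute RNA to a bulk sample. Adipocytes and these neighbours talk to each other through secreted hormones, growth factors and chemokines, read by receptors at the cell surface and acted on through signalling regulators and transcription factors. Transporters and channels set what enters and leaves each cell and its lysosomes. When fat expands, macrophages gather around overloaded adipocytes and take up lipid, which they break down in acidified lysosomes. In bulk RNA fewer cells of a type cannot be told apart from less RNA per cell.

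Levels are given as log2 of the processed signal relative to the 75th percentile of the same array, so a value of 0 is the signal at that percentile. Differences are NZO minus B6 on this log2 scale, given with the fit's standard error (SE), and a gene was called where its adjusted p from limma was under 0.05. Array values follow in the order NZO 009, 012, 003 and 007, then B6 010, 011, 015 and 009. The 75th percentile itself lay between 201.1 and 311 signal units on the 8 arrays, 54.0% to 60.4% of probes were well above background, and no probe used here was saturated. Arrays of the same strain correlated at 0.972 to 0.986 across probes and arrays of different strains at 0.954 to 0.973. Of 21660 genes tested, 6762 (31.2%) were called, 3603 higher (16.6%) and 3159 lower (14.6%) in NZO. With arrays centred on their median in place of the 75th percentile, the median difference of all genes moved from 0.02 to 0.28, and 4604 were higher and 1539 lower, so that the share of calls that were higher went from 53.3% to 74.9%. Counts of lower genes below are therefore given with their value under median centring where it moved by more than 1.5 times.

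The tissue label was checked against marker lists. All 8 markers of mature adipocytes were measured, with a mean level of 7.32 to 7.89 in NZO and 6.97 to 7.22 in B6, and 3 were called higher and 0 lower. Cidea, which is also on the brown adipocyte list, was among the 3, with a difference above the 3.76 of Il7r. How far the adipocyte list differs without Cidea was not tested. Of 12 epididymis markers, 11 were not well above background on all arrays of either strain, and 3 of 7 germ cell markers on the array were measured, at low level. Macrophage markers had a mean level of 2.75 to 2.89 in NZO and 1.22 to 1.51 in B6, with 11 of 15 called higher and 2 lower (Itgam and Mertk; 0 lower under median centring). Markers of brown adipocytes stood at 1.36 to 1.77 in NZO and -1.34 to -0.40 in B6, with 7 of 11 higher and 1, Ppargc1a, lower. Neutrophil markers stood at -1.0 to -0.33 against -2.40 to -1.73, with 4 of 6 called higher and 1, Ly6g, lower. Ly6g was above background on all B6 arrays and on no NZO array, so the list mean does not hold for each member. Cell cycle genes stood at 0.81 to 1.16 against -0.43 to -0.30. Single arrays also stood apart. NZO 012 had a B cell level of 1.65 where the other NZO arrays lay between -0.90 and -0.67, B6 010 had a skeletal muscle level of 1.46 where the other B6 arrays lay between -1.62 and -0.54, and B6 011 and B6 015 had mesothelial levels of 1.77 and 1.21 where the other arrays lay between 0.15 and 0.51. Liver transcripts varied in both strains, from 1.0 to 4.64 in NZO and from 0.15 to 4.70 in B6. With NZO 012 and B6 010 both left out, 2331 genes were higher and 1848 lower.

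**Figure D1:**
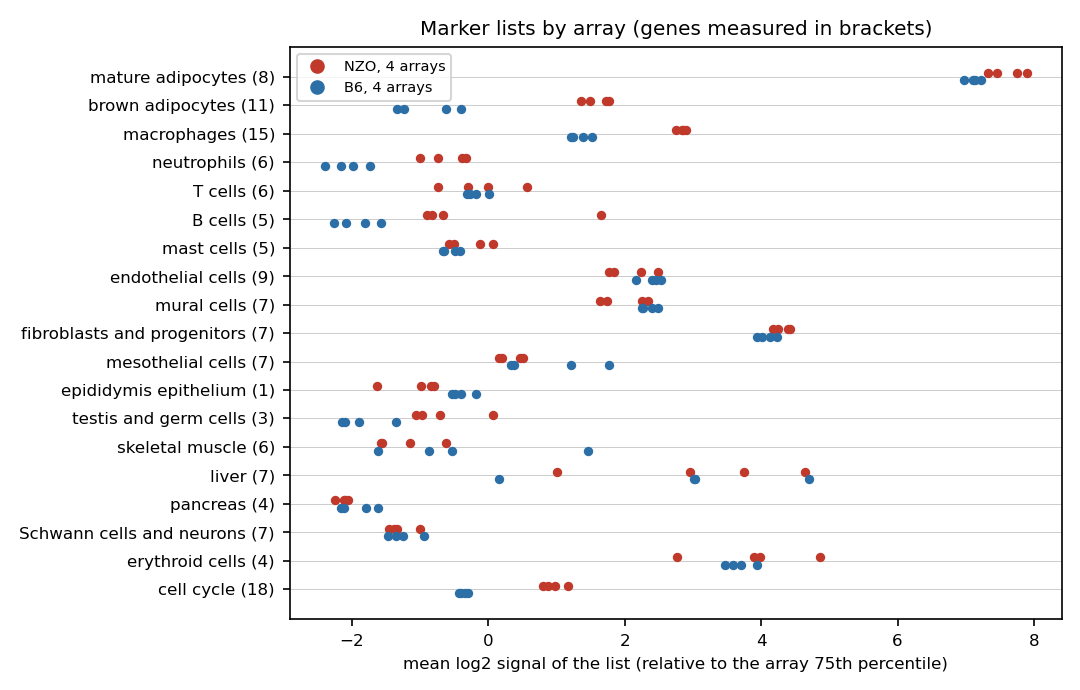
Mean log2 signal of each marker list relative to the array's 75th percentile (x axis) on the 4 NZO and 4 B6 white fat arrays, with the number of measured genes in brackets. Adipocyte markers are the highest list on every array. The mature adipocyte, macrophage, brown adipocyte, neutrophil, B cell, germ cell and cell cycle lists separate the strains without overlap, as does the 1 epididymis gene measured.

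The gene classes differed in how their calls split. Of 453 transcription factors tested, 59 were higher and 99 lower in NZO (13% and 21.9%), of 373 secreted factors 100 and 42 (26.8% and 11.3%), of 431 receptors 125 and 68 (29% and 15.8%), and of 567 transporters and channels 130 and 97 (22.9% and 17.1%). Signalling regulators had 51 higher and 22 lower of 209 (24.4% and 10.5%), adhesion molecules 22 and 22 of 121, and enzymes of lipid, steroid and drug metabolism 37 and 37 of 195. The background was 16.6% higher and 14.6% lower. Median differences were -0.07 for transcription factors, 0.29 for secreted factors, 0.18 for receptors, 0.07 for transporters, 0.09 for signalling regulators, 0.00 for adhesion molecules and 0.05 for enzymes, against 0.02 over all genes. Under median centring the transcription factors had 89 higher and 42 lower, so their excess of lower calls was not seen with that scaling, and the secreted factors had 124 and 22. The same scaling gave 160 and 28 for receptors, 153 and 42 for transporters and 65 and 3 for signalling regulators. Lower calls among signalling regulators were 14 without NZO 007 or B6 015, 12 without B6 009, 11 without B6 010 and 10 without B6 011. With slide as a fixed block the counts were 41 and 60 for transcription factors, 85 and 28 for secreted factors, 93 and 44 for receptors, 83 and 56 for transporters and 27 and 7 for signalling regulators.

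**Figure D2:**
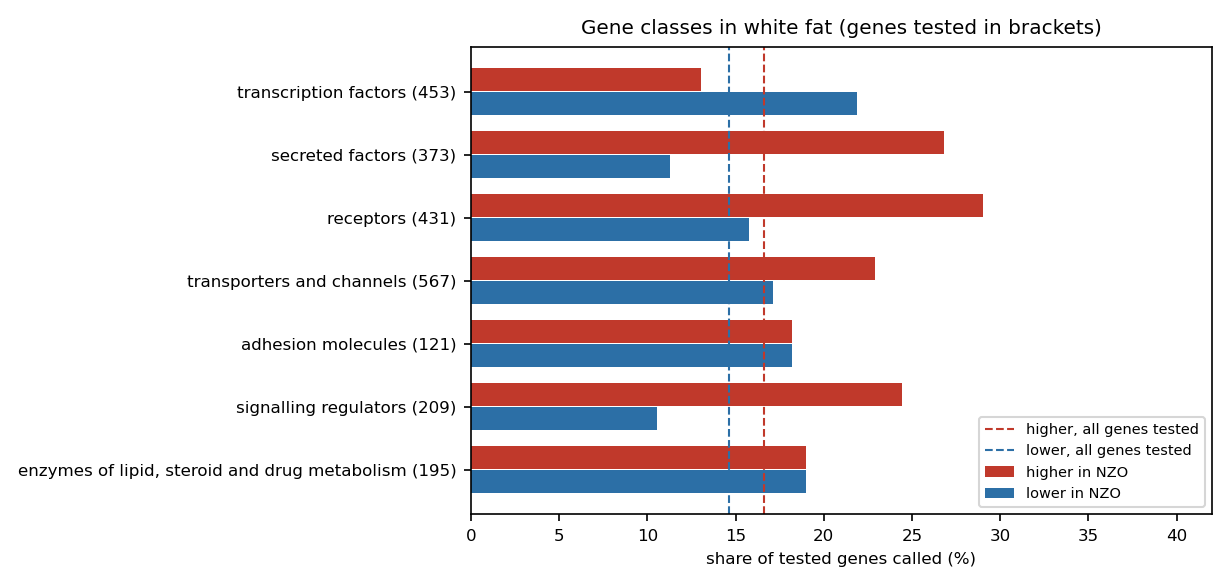
Share of tested genes called higher (red) or lower (blue) in NZO white fat, in percent, for 7 gene classes, with dashed lines at the shares over all genes tested. Secreted factors and receptors had the longest red bars, at 26.8% and 29%, and transcription factors were the class with the longest blue bar, at 21.9%.

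Among transcription factors, 16 of 50 leucine zipper genes were higher in NZO, and 16 of 25 Hox genes and 11 of 37 nuclear receptors were lower. Atf3, a stress-induced leucine zipper repressor (probe on mm9 chromosome 1, 192994547 to 192994606), read 2.47, 3.09, 2.85 and 2.46 in NZO and -0.67, -0.46, -0.19 and -0.33 in B6. The difference was 3.13, SE 0.18 with an adjusted p of 1.18e-05 from limma. Spi1 encodes PU.1, the factor that directs macrophage development, and read -0.65, -0.29, -0.66 and -0.59 against -3.72, -3.65, -3.29 and -3.28, a difference of 2.93, SE 0.15. The immediate early gene Fos read 0.62, 0.97, 0.98 and 0.50 against -1.92, -1.54, -1.94 and -1.44, higher by 2.48, SE 0.17. Pknox2, a homeobox gene, was higher by 3.08, SE 0.13, with values of 0.65, 0.57, 0.47 and 0.93 against -2.54, -2.48, -2.30 and -2.38. The limb and heart factor Tbx5 rose above background on each of the 4 NZO arrays and on no B6 array, at least 11.7-fold higher.

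Of 50 leucine zipper genes tested, 16 were higher and 6 lower (median 0.25, against 0.02 over all genes). Besides Atf3 and Fos, the higher ones included Maff (1.68, SE 0.32), Batf (1.38, SE 0.14), Junb (1.22, SE 0.15) and Cebpb (0.86, SE 0.17), a factor of inflammation and early fat cell differentiation. The lower ones included the clock output factors Hlf (-1.09, SE 0.36) and Tef (-0.97, SE 0.27), and all 6 lost their call under median centring; 2 or 3 were called without NZO 009, 003 or 007 or B6 010. In the Ets and Runx families 8 of 24 were higher and only Etv3 was lower; Spib (2.29, SE 0.71), Runx1 (1.29, SE 0.17) and Spic (1.25, SE 0.23) followed Spi1. Of 25 Stat, Irf and NF-kappaB genes, 5 were higher, a share near the 16.6% over all genes, namely Irf8 (1.61, SE 0.16), Irf5 (1.32, SE 0.15), Nfkb2 (0.91, SE 0.11), Relb (0.77, SE 0.12) and Stat4 (0.53, SE 0.17), and limma called 0 lower (1 at an unadjusted p under 0.05). Many of these factors are known from myeloid cells, whose marker list moved the same way (2.75 to 2.89 against 1.22 to 1.51); its part in their difference was not tested.

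Hox genes, which encode position along the body axis and differ between fat depots, had 16 of 25 tested lower in NZO, with a median difference of -0.88; limma called 0 higher (0 at an unadjusted p under 0.05). Hoxa5 read -2.38, -2.57, -2.13 and -2.53 in NZO against -0.86, -0.46, -0.72 and -0.40 in B6 (-1.80, SE 0.15, adjusted p = 7.60e-05). Hoxb6 (-1.70, SE 0.30), Hoxd4 (-1.59, SE 0.46), Hoxa7 (-1.51, SE 0.12) and Hoxb5 (-1.37, SE 0.24) were next among genes measured on all 8 arrays, so members of the Hoxa, Hoxb and Hoxd clusters were involved. From the Hoxc cluster only Hoxc4 was called (-0.62, SE 0.11). The count of lower genes was 11 under median centring, 12 with slide as a block and 13 without NZO 012 and B6 010. Nuclear receptors had 11 lower and 1 higher, Rarb, of 37 tested. The lower ones included Nr1d1, a clock repressor (-1.65, SE 0.34), Nr2f1 (-1.0, SE 0.20), Rxra, the shared partner of many nuclear receptors (-0.91, SE 0.16), and Thra, a thyroid hormone receptor (-0.53, SE 0.14). Under median centring 5 nuclear receptors were lower and 1 higher.

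Other factors at the lower end were Glis3, a zinc finger factor linked to diabetes (-3.28, -3.58, -3.86 and -3.55 against -1.85, -1.03, -1.56 and -1.26, difference -2.14, SE 0.20), and Zfhx3, a zinc finger homeobox gene (-1.58, -1.23, -1.27 and -1.59 against 0.73, 0.84, 0.49 and 0.79, difference -2.13, SE 0.14). Foxj1, the factor of motile cilia, was above background on no NZO array and on all B6 arrays, where it spread widely (-2.22, -4.05, 0.68 and -3.5), at least 5.73-fold lower in NZO. The bound was 2.90-fold without B6 015, its highest B6 value, and 8.63-fold without B6 011.

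**Figure D3:**
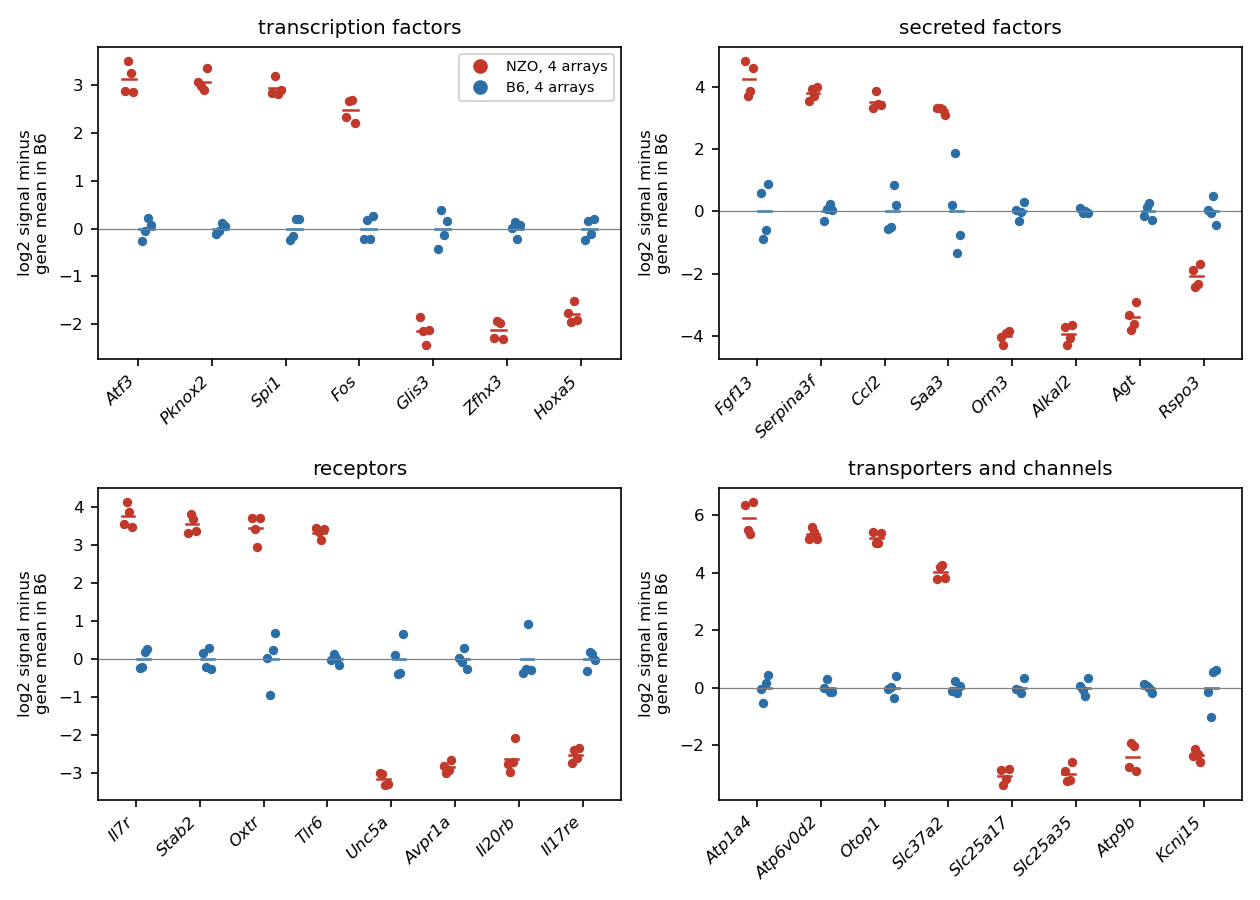
Log2 signal of each array minus the gene's mean in B6 (y axis) for the most raised and most lowered named genes of 4 classes; each dot is an array and short lines are means of 4. Genes were shown only where the strains did not overlap (7684 of 21660 genes tested), so their separation follows from that choice. Saa3 has the widest spread in B6 among the genes shown.

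Secreted factors were more often higher than lower (100 against 42 of 373). The monocyte chemokine Ccl2 read 4.79, 5.36, 4.94 and 4.90 in NZO against 0.91, 0.98, 2.33 and 1.69 in B6 (3.52, SE 0.31, adjusted p = 1.07e-04). Of 28 chemokines, 15 were higher and 3 lower (median 0.76). Ccl7 (3.10, SE 0.32), Ccl3 (2.79, SE 0.38), Ccl8 (2.56, SE 0.48) and Cxcl1 (2.44, SE 0.44) were among the higher ones. The 3 lower ones were the platelet chemokine Ppbp (-0.97, SE 0.16), the skin T cell chemokine Ccl27a (-0.91, SE 0.12) and the eotaxin Ccl24 (-0.76, SE 0.24). Il1rn, the interleukin-1 receptor antagonist, was detected on no B6 array and was at least 16.2-fold higher.

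Acute-phase and serpin genes moved in opposite directions by gene. Saa3, the serum amyloid A made in fat, was even in NZO (3.91, 3.93, 3.88 and 3.70) and uneven in B6 (0.81, 2.49, -0.73 and -0.17), a difference of 3.26, SE 0.61. Orm3, of the orosomucoid acute-phase family, went the other way, with -2.99, -3.25, -2.87 and -2.80 in NZO and 1.09, 0.73, 1.01 and 1.32 in B6 (-4.01, SE 0.16). Serpina3f, a protease inhibitor of the antichymotrypsin group, read 0.18, 0.56, 0.33 and 0.62 against -3.71, -3.32, -3.16 and -3.34 (3.80, SE 0.16). Of 36 serpins 13 were higher and 2 lower (median 0.72), and the 2 lower ones, Serpina3b and Serpina3j, belong to the same gene cluster as Serpina3f; 1 serpin was lower under median centring. The other probe of Serpina3f gave a difference of 2.55. Members of this cluster and of the Orm cluster are close copies, and whether a probe also binds a copy was not tested. The liver marker list, which holds acute-phase producers' genes, ranged widely in both strains (1.0 to 4.64 and 0.15 to 4.70).

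Growth factors and their antagonists gave some of the widest differences. Fgf13, an intracellular member of the fibroblast growth factor family, read 1.55, 0.41, 0.60 and 1.32 against -2.69, -4.17, -3.87 and -2.41 (4.25, SE 0.44), but its other probe gave 0.28, so the gene's difference depends on the probe. Wif1, a secreted Wnt inhibitor, was on all NZO arrays (0.71, -0.37, -0.08 and 0.59) and below the background criterion throughout B6, at least 38.3-fold higher. The related Wnt antagonists Sfrp5 (3.17, SE 0.48), Sfrp4 (1.61, SE 0.24) and Sfrp2 (0.93, SE 0.22) were also higher, whereas Rspo3, which strengthens Wnt signals and is known from human fat distribution, was lower (-2.43, -2.97, -2.90 and -2.25 against -0.51, -0.61, -0.07 and -1.0, -2.09, SE 0.23). In all, 5 of 19 Wnt family genes were higher and 3 lower, against 16.6% and 14.6% over all genes. The others called were Notum (higher), Wnt5b and Wnt9a (lower).

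Of 7 EGF family ligands, 4 were higher, 1 lower and the median was 1.02. Areg and Ereg, the amphiregulin and epiregulin genes, were on no B6 array above background and at least 5.79-fold and 3.26-fold higher. Hbegf was higher by 1.02, SE 0.16, Epgn was above background on 3 of 4 B6 arrays and was also called higher, and the lower one was Egf (-0.33, SE 0.10), a call that was not made under median centring. Of 37 TGF-beta family ligands and antagonists 12 were higher and 5 lower. Mstn, the myostatin gene, was on no B6 array above background and at least 7.24-fold higher. Gdf5 (2.63, SE 0.17), Bmp3 (2.09, SE 0.21), the stress hormone gene Gdf15 (-0.86, -0.83, -0.56 and -1.02 against -2.65, -2.78, -1.38 and -2.66, 1.55, SE 0.30) and Tgfb1 (0.86, SE 0.12) were higher. Inhbb, the activin B subunit made by adipocytes, was lower (2.28, 2.40, 2.07 and 2.40 against 3.37, 3.11, 2.98 and 3.36, -0.92, SE 0.14).

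Among 35 adipokines and peptide hormones, 9 were higher and 10 lower (median 0.14), and 4 were lower under median centring and 5 without B6 010. Alkal2, a ligand of the receptor ALK, separated the strains tightly, with -3.01, -3.56, -3.36 and -2.94 in NZO and 0.84, 0.67, 0.72 and 0.66 in B6 (-3.94, SE 0.16, adjusted p = 2.02e-06). Agt, angiotensinogen, the precursor of angiotensin that fat releases along with liver, read 0.66, 0.16, 0.37 and 1.08 against 3.84, 4.12, 4.26 and 3.71 (-3.41, SE 0.22). Metrnl (1.95, SE 0.10) and Cck (1.24, SE 0.25) were higher, and Npy, neuropeptide Y, was at least 4.44-fold higher with no B6 array above background. Igf2, insulin-like growth factor 2, was above background on no NZO array and at least 1.84-fold lower, a call lost without any of NZO 009 and 007 and the 4 B6 arrays (adjusted p from 0.0525 to 0.0991).

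Receptors of innate immunity were often raised. Of 67 pattern recognition, lectin, scavenger and Fc receptors, 35 were higher and 9 lower (median 0.79; 37 and 5 under median centring). Tlr6, a Toll-like receptor for bacterial lipopeptides, read 0.96, 0.86, 0.66 and 0.94 in NZO and -2.51, -2.35, -2.45 and -2.63 in B6 (3.34, SE 0.11, adjusted p = 1.18e-06). Stab2, a scavenger receptor that clears hyaluronan, read 0.38, 0.89, 0.75 and 0.44 against -2.77, -3.14, -2.66 and -3.20 (3.56, SE 0.18). Others in this group were Tlr13 (3.15, SE 0.14), Mrc2 (3.17, SE 0.16), Clec4d (3.29, SE 0.25) and Clec7a, the beta-glucan receptor (2.13, SE 0.16), and Olr1, a receptor for oxidised lipoprotein, was at least 12.2-fold higher. The lower ones included Pilrb2, at least 5.16-fold, its neighbours Pilrb1 and Pilra, and Scarb1, the HDL receptor (-0.71, SE 0.12). The integrin Itgad, found on macrophages, had the largest bound of all receptors, at least 40.9-fold higher, with 0.94, 0.15, 0.20 and -0.07 in NZO and no B6 array above background. The macrophage markers moved alongside, from 1.22 to 1.51 in B6 and from 2.75 to 2.89 in NZO, and their part in this group was not tested.

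Of 73 cytokine and TNF receptors 26 were higher and 8 lower (median 0.43; 34 and 4 under median centring, 5 lower without NZO 007 or B6 011). Il7r, the interleukin-7 receptor, read -0.12, 0.46, 0.20 and -0.21 against -3.92, -3.89, -3.5 and -3.42 (3.76, SE 0.19). The level of the 6 T cell markers tested was -0.74 to 0.56 in NZO and -0.31 to 0.01 in B6. Of these markers limma called 0 (0 at an unadjusted p under 0.05), with 1 higher under median centring and 1 lower with slide as a block. The part of T cells in the Il7r difference was not tested. Il1r2, a decoy receptor, Il13ra2 and Csf2rb2 were among the other higher ones. At the lower end, Il20rb read -3.94, -4.17, -3.90 and -3.27 against -1.54, -1.44, -0.26 and -1.46 (-2.64, SE 0.32), and Il17re read -2.81, -2.47, -2.69 and -2.44 against -0.39, 0.10, 0.06 and -0.10 (-2.52, SE 0.15).

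Hormone receptors moved in both directions. Over all genes 16.6% were higher and 14.6% lower, and the peptide hormone receptors had no larger share of either. Oxtr, the oxytocin receptor, read 5.11, 4.82, 4.34 and 5.11 in NZO and 1.43, 0.43, 1.63 and 2.07 in B6, 10.9-fold higher (3.45, SE 0.34, adjusted p = 1.90e-04). Avpr1a, the receptor of the sister peptide vasopressin, read -3.37, -3.56, -3.49 and -3.21 against -0.51, -0.63, -0.25 and -0.80 and was lower (-2.86, SE 0.15, adjusted p = 6.01e-06). Of 38 genes grouped by symbol as peptide hormone receptors, the others called higher were Npr1, Vipr2, Agtrap (a receptor-associated protein) and Sstr5. Npy1r, Tacr2 and Npr2 were lower, and with Avpr1a the lower ones went from 4 to 2 under median centring. Of 13 amine receptors, 4 were higher and 3 lower. Adrb3, the adrenergic receptor of lipolysis, was lower (-1.69, SE 0.27). Chemoattractant receptors had 9 higher and 3 lower of 22. Receptor tyrosine kinases had 7 higher and 11 lower of 41 (median -0.30), with Insr (-0.76, SE 0.14; its other probes gave -0.50 and -0.01), Igf1r (-0.74, SE 0.23) and Kit (-0.88, SE 0.15) lower and Ret (1.30, SE 0.29) higher, and 3 were lower under median centring and 7 without B6 010 or 011. Unc5a, a netrin receptor, read 0.04, 0.00, -0.29 and -0.26 against 3.14, 2.65, 2.66 and 3.68 and had the lowest difference of all receptors measured on all 8 arrays (-3.16, SE 0.24).

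Transporters held the highest single differences of the classes. Atp1a4, a sodium pump subunit known from sperm (probe on mm9 chromosome 1, 174153644 to 174153703), read 5.77, 4.89, 4.77 and 5.88 in NZO and -0.62, -1.13, -0.44 and -0.16 in B6 (5.91, SE 0.31). Germ cell markers were low or not measured, with a mean level of 3 genes of -1.06 to 0.07 in NZO and -2.14 to -1.35 in B6. The strains did not overlap in that level, and Prm1, above background on no B6 array, was at least 3.69-fold higher in NZO. Slc37a2, a sugar phosphate exchanger of macrophages, read 2.12, 2.56, 2.60 and 2.18 against -1.76, -1.43, -1.83 and -1.60 (4.02, SE 0.16). Otop1, a proton channel known from brown fat and taste cells, read 2.74, 2.36, 2.37 and 2.70 against -2.72, -2.65, -3.03 and -2.26 (5.21, SE 0.18; 2.10 by its other probe), and Kcnk3, a potassium leak channel of brown adipocytes, read 2.68, 2.31, 2.47 and 2.89 against 1.01, 0.86, 0.42 and 1.59 (1.62, SE 0.25). Both belong to the brown adipocyte list, which stood at 1.36 to 1.77 in NZO and -1.34 to -0.40 in B6; its part was not tested. Slc27a6, a fatty acid transporter, was at least 7.36-fold higher, and Abcg1, which exports cholesterol, was higher by 1.62, SE 0.11.

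The vacuolar proton pump acidifies lysosomes and consists of a membrane sector (V0) and a catalytic sector (V1). Of 24 pump and proton channel genes tested, 15 were higher and 1 lower (median 0.52), the count of higher genes being 15 under median centring, 8 with slide as a block and 7 without NZO 012 and B6 010. Atp6v0d2, a V0 subunit known from macrophages and osteoclasts, read 1.66, 2.06, 1.89 and 1.67 in NZO and -3.54, -3.21, -3.66 and -3.66 in B6 (5.34, SE 0.15, adjusted p = 5.21e-07). Another tissue-restricted subunit, Atp6v1c2, was higher by 2.52, SE 0.57. The widely expressed subunits moved less, with Atp6v0a1 at 1.42, SE 0.14, Atp6v1b2 at 1.41, SE 0.13, Atp6v1a at 0.98, SE 0.13, Atp6v0b at 0.73, SE 0.17 and Atp6v0e at 0.59, SE 0.12. The lower one was Atp6v0e2 (-1.09, SE 0.20). Tfeb, a master factor of lysosomal genes, read -0.50, -0.12, -0.38 and -0.43 against -0.59, -0.58, -0.63 and -0.64, a difference of 0.25, SE 0.11 that was not called (95% interval 0.00 to 0.50).

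Since most of these genes were higher, their RefSeq promoters (GRCm38.p6, a window of 300 bases around each gene start, most of it upstream) were searched for CACGTG, the core that Tfeb and related helix-loop-helix factors bind, and for TCACGTGA, the longer form in lysosomal genes, which contains it. Each motif reads the same on both strands. Promoters were found for 17 of the 24 genes tested. CACGTG was in 4 of these 17, in 3 of the 11 whose genes were higher, and in 7.15% of all 32851 promoters, and TCACGTGA was in 3 of the 17, in 2 of the 11 and in 0.97% of all. These shares are not like for like. A pump gene with several promoters counted as holding the core if any of them did, whereas the share over all counts each promoter. A chromosome left out for the pump genes is also included in the share over all. The promoters of the 3 higher genes with the core are shown because they are the ones where letters and difference meet, with CACGTG in capitals, each on the gene's own strand. Atp6v0b lies at chr4:117887280-117887579 (minus strand), Atp6v0e at chr17:26676146-26676445 (plus strand) and Atp6v1a at chr16:44139210-44139509 (minus strand).
Atp6v0b: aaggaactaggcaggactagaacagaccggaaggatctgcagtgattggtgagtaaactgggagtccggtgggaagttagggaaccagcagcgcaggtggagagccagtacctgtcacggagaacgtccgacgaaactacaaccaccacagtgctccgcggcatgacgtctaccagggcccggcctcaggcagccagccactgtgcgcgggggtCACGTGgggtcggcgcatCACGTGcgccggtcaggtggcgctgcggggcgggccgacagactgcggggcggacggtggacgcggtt
Atp6v0e: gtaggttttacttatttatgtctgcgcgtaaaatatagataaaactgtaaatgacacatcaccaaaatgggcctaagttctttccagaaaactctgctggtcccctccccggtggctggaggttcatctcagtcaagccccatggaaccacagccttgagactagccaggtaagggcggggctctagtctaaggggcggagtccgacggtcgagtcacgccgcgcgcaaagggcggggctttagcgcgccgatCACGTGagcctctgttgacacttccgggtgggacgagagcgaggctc
Atp6v1a: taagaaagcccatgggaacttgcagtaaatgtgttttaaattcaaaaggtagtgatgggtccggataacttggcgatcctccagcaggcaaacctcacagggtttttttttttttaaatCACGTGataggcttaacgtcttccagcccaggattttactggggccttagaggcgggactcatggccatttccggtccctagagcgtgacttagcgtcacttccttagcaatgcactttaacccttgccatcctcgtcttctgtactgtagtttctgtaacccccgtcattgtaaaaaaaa
Atp6v0b holds the core 2 times, and Atp6v0e and Atp6v1a hold the longer form. Atp6v0d1, which was not called (0.44, SE 0.17), also holds it.

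At the lower end, Slc25a17, a peroxisomal carrier of coenzyme A and related cofactors, read 1.36, 0.81, 1.02 and 1.37 in NZO and 4.16, 4.14, 4.01 and 4.53 in B6 (-3.07, SE 0.17), and Slc25a35, a carrier of the same family with unknown cargo, read -1.08, -1.43, -1.38 and -0.74 against 1.90, 1.73, 1.54 and 2.16 (-2.99, SE 0.19). Atp9b, a lipid flippase (-2.40, SE 0.24), and Kcnj15, a potassium channel (-2.35, SE 0.34), followed. Slc9b2, a sodium-proton exchanger, was above background on no NZO array and at least 10.3-fold lower. Of 64 sodium, calcium and Trp channels 10 were higher and 17 lower (16 and 7 under median centring, 11 lower without B6 011), and of 42 potassium channels 8 were higher and 10 lower (11 and 6 under median centring). The direction of the excess in both channel groups thus turned with the scaling. Slc7a10, a neutral amino acid carrier of adipocytes, read 4.35, 3.84, 3.85 and 4.35 against 5.32, 5.40, 5.47 and 5.73 (-1.38, SE 0.17).

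**Figure D4:**
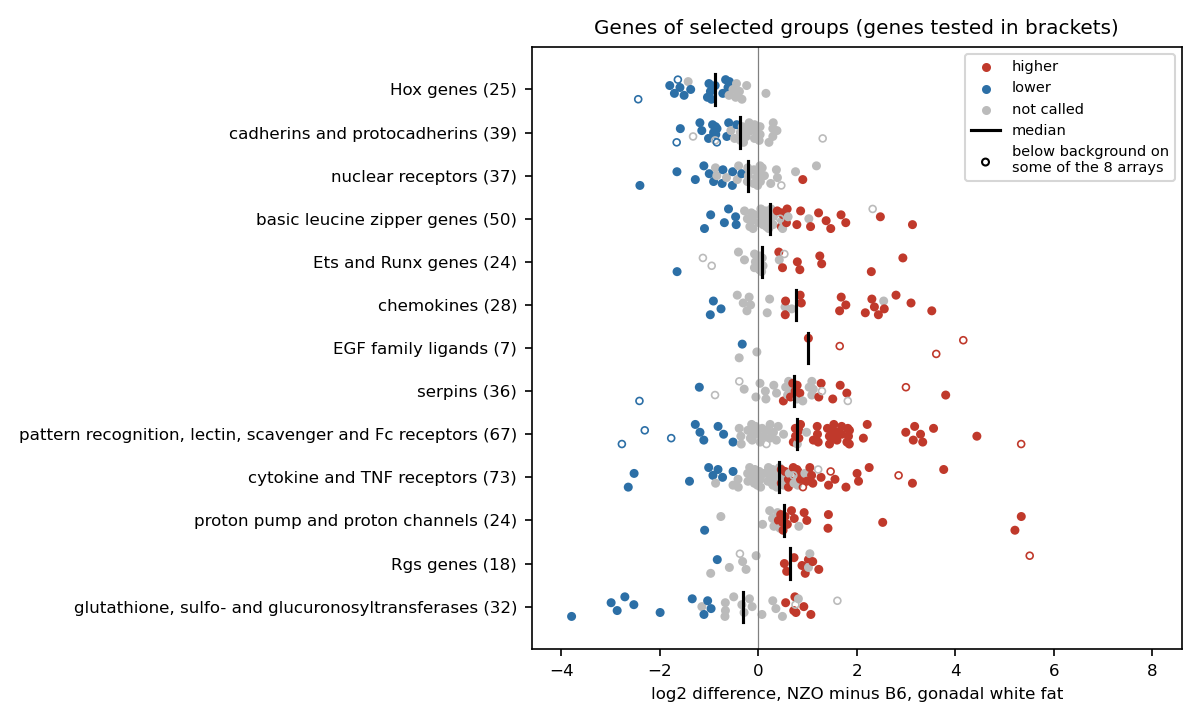
Log2 difference NZO minus B6 in white fat (x axis) for every tested gene of 13 groups, with the number tested in brackets; red and blue dots were called, grey ones were not, open dots were below background on some arrays and do not measure size, and black lines are medians. Hox genes lie almost wholly left of 0 (median -0.88), and chemokines, innate receptors and proton pump genes mostly right of it (0.76, 0.79 and 0.52).

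Among adhesion molecules, cadherins and protocadherins, which join like cells, had 14 of 39 lower (median -0.36), while limma called 0 higher (1 at an unadjusted p under 0.05), with 9 lower and 3 higher under median centring. Of these 14, Pcdh17 read -1.04, -0.16, -0.32 and -1.07 against 1.17, 0.97, 0.50 and 1.1 (-1.58, SE 0.25) and Pcdhb17 read -1.11, -1.42, -1.31 and -1.5 against -0.03, -0.23, -0.29 and -0.05 (-1.19, SE 0.12). Most of the others belong to the beta protocadherin cluster, whose members are close copies, so that signal shared between copies cannot be told apart; Pcdhac2 of the alpha cluster was at least 1.5-fold lower. Cldn22, a tight junction gene, read 0.77, -0.12, 0.31 and 0.90 against 3.5, 3.62, 3.37 and 3.81 (-3.11, SE 0.23). Of 36 immunoglobulin family adhesion genes 12 were higher and 2, Lrrn1 and Cntn2, lower. Cadm1 read -0.12, 0.62, 0.49 and -0.07 against -2.66, -2.46, -1.36 and -2.66 (2.52, SE 0.32), Igsf21 differed by 2.44, SE 0.26 and Igsf6, a myeloid gene, by 2.07, SE 0.13.

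Of 18 Rgs genes, which end signals of G protein-coupled receptors, 9 were higher and 1, Rgs3, lower (median 0.65; 11 and 0 under median centring), with Rgs10 (1.23, SE 0.13) and Rgs2 (1.1, SE 0.13) the highest among those measured on all 8 arrays. Rem1, a small GTPase that restrains calcium channels, read 1.83, 2.11, 2.21 and 1.94 in NZO and -2.11, -2.19, -1.98 and -1.67 in B6 (4.01, SE 0.15). Pde7a, which breaks down cyclic AMP, read 3.01, 2.51, 2.43 and 2.94 against 0.48, 0.55, 0.21 and 0.69 (2.24, SE 0.17), and Arhgap25, a Rac regulator of blood cells, differed by 1.86, SE 0.15. Dusp23, a phosphatase, read -0.52, -0.94, -0.93 and -0.63 against 2.03, 2.25, 1.78 and 2.19 (-2.82, SE 0.15). Rasd1, a Ras-like gene induced by glucocorticoids, was lower with a wide NZO spread (1.69, 1.25, 0.53 and 2.70 against 3.73, 3.98, 3.20 and 3.68, -2.10, SE 0.42). Gng7, a G protein subunit, was lower by its main probe (-1.54, SE 0.20) but not by its other probe (0.27), so the sign depended on the probe.

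Among enzymes, glutathione transferases were found in both directions, as were both prostaglandin D synthases. Of 32 glutathione, sulfo- and glucuronosyltransferases 6 were higher and 10 lower (median -0.31), with 10 lower under median centring as well. Gstm6 read -3.35, -2.93, -3.13 and -2.78 in NZO and 0.00, 0.19, 2.41 and 0.38 in B6 (-3.79, SE 0.49), and Gsta3 (-2.87, SE 0.22), Gstm3 (-2.71, SE 0.11), Gstm2 (-2.53, SE 0.14) and Gstt1 (-1.99, SE 0.13) were lower too, while Gstm4 (0.55, SE 0.14), Gsto1 (0.72, SE 0.18) and Gsto2 (0.74, SE 0.20) were higher. The Gstm genes are close copies in a cluster, and signal shared between them cannot be told apart. Sult1e1, which inactivates oestrogen, read 1.07, -1.25, 0.55 and 2.15 against 3.19, 3.77, 4.87 and 2.63 (-2.99, SE 0.73). Hpgds, the haematopoietic prostaglandin D synthase, read -1.71, -1.0, -0.97 and -1.63 against -3.74, -4.05, -3.33 and -3.87 (2.42, SE 0.23), whereas Ptgds, the lipocalin-type synthase of the same prostaglandin, was lower (-4.42, -2.89, -3.51 and -3.22 against -2.67, -0.53, 2.80 and 0.26, -3.48, SE 1.0). The Ptgds call rests on B6 arrays that spread widely, and it was lost without NZO 009, 003 or 007 or B6 011 or 009 (adjusted p from 0.0571 to 0.0825). Pla2g5, a secreted phospholipase, read 0.47, -0.48, -0.77 and 0.09 against -4.04, -4.03, -1.12 and -3.93 (3.11, SE 0.66), with B6 015 far above the other B6 arrays. Adh4, an alcohol and retinol dehydrogenase, was higher by 2.35, SE 0.40, and Akr1b7, an aldose reductase of the stromal cells of fat, was at least 2.42-fold higher.

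A panel of 40 genes well known in fat was described whatever their values. Of 39 tested, 4 were higher, 14 lower and 21 not called, and Tbx15 was on the array but not above background on all arrays of either strain. Pparg, the master factor of adipocytes, read 6.36, 5.97, 6.20 and 6.34 against 6.28, 6.35, 6.07 and 6.54, a difference of -0.09, SE 0.14 (95% interval -0.41 to 0.23). Srebf1, the lipogenic factor (0.00, SE 0.26, 95% interval -0.60 to 0.60), Ebf2, a factor of brown adipocyte identity (-0.11, SE 0.10, 95% interval -0.34 to 0.12), and Prdm16, another such factor (0.32, SE 0.13, 95% interval 0.02 to 0.63), were not called either. Cebpa, the partner of Pparg (-0.61, SE 0.16), Mlxipl, the glucose-sensing factor ChREBP (-0.80, SE 0.14), and Nr3c1, the glucocorticoid receptor (-0.72, SE 0.11), were lower. Of the 14 lower genes, 11 lost their call under median centring, and Agt, Inhbb and Slc7a10 kept it.

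Apart from Agt, the secreted adipocyte products of the panel that were lower differed by less than 1 log2 unit. Cfd, adipsin, differed by -0.82, SE 0.20, Rbp4, the retinol carrier, differed by -0.80, SE 0.20, Apln, apelin, by -0.85, SE 0.22, and Retn, resistin, by -0.52, SE 0.17 (adjusted p = 0.04999, at the edge of the threshold). Angptl4, the inhibitor of lipoprotein lipase (0.51, SE 0.20), and Nrg4 (-0.39, SE 0.21; -2.08 by 1 of its other probes) were not called. Fgf21, a metabolic hormone, was above background on all NZO arrays and 1 of 4 B6 arrays and was called higher. Among uptake genes, Slc2a4, the insulin-responsive glucose carrier GLUT4, read 5.48, 5.09, 4.97 and 5.75 against 6.06, 5.97, 5.79 and 6.20 (-0.68, SE 0.19, adjusted p = 0.0269), while Slc2a1 (0.09, SE 0.19), Cd36 (0.23, SE 0.14) and the glycerol channel gene Aqp7 (0.22, SE 0.11) were not called. The receptors Ghr (-0.18, SE 0.15), Lepr (0.72, SE 0.49; -0.51 by its other probe), Adipor2 (0.08, SE 0.19), Npr3 (-0.09, SE 0.22), Ffar2 (-0.04, SE 0.26) and Pdgfra (0.07, SE 0.16) were not called, and Hcar1, the lactate receptor (-0.94, SE 0.30), and Fgfr1 (-0.48, SE 0.14) were lower. Calls of Retn, Hcar1, Fgfr1 and Slc2a4 each ended when any of several arrays was left out (5 or more of the 8). Those of Cebpa, Rbp4 and Apln ended without B6 010, and that of Apln also without NZO 009. The remaining uncalled panel genes were Nr4a1 (-0.01, SE 0.17), Slc16a1 (0.21, SE 0.18), Slc27a1 (-0.72, SE 0.26), Abca1 (0.04, SE 0.13) and Slc12a2 (-0.24, SE 0.20).

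The strain difference in white fat was then set against that in brown fat in a fit of 16 arrays. Over all genes, 3880 (17.9%) had a difference that differed between the depots, and among the 98 named genes 57 did, 19 of which were not well above background on all brown fat arrays of either strain, so that their size in brown fat is not measured. The named genes were chosen for their size in white fat, which the test uses, so the count of 57 is a description. For several genes the strains differed in white fat and little in brown fat. Atp6v0d2 differed by 5.34, SE 0.15 in white and 0.07 in brown fat, where it was not above background, Otop1 by 5.21, SE 0.18 and -0.37, Atf3 by 3.13, SE 0.18 and -0.17, and Pde7a by 2.24, SE 0.17 and 0.29. Fos differed by 2.48, SE 0.17 in white fat and -1.48 in brown fat. There it was above background on all arrays of B6 only, with an SD between arrays of 0.82 in NZO and 1.0 in B6. Nr4a1, a related immediate early gene, was not called in white fat (-0.01, SE 0.17) and stood -3.84 in brown fat. Its brown fat arrays spread widely in B6 (SD 1.90) and little in NZO (SD 0.13). Agt (-0.71 in brown fat), Kcnj15 (0.33) and Igsf21 (-0.36) also passed the test of the difference.

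Other named genes had a difference in brown fat close to that in white fat. Rem1 differed by 4.01, SE 0.15 in white and 3.80 in brown fat, with a difference between depots of 0.21 (95% interval -0.43 to 0.85). For Dusp23 the values were -2.82, SE 0.15 and -2.82 (interval -0.49 to 0.49), for Unc5a -3.16, SE 0.24 and -3.49 (-0.53 to 1.18), for Slc25a17 -3.07, SE 0.17 and -3.67 (-0.03 to 1.22), and for Tlr6 3.34, SE 0.11 and 3.86 (-1.32 to 0.27). In brown fat the Tlr6 and Atp1a4 probes were above background on all arrays of NZO only, so their size there is not measured. These intervals bound how far the depots may differ and do not show that they are equal. Atp1a4 differed by 5.91, SE 0.31 in white fat and 4.26 in brown fat. Slc37a2 (4.02, SE 0.16 and 2.0) and Orm3 (-4.01, SE 0.16 and -2.45) kept their sign in brown fat with a smaller size. Sequence differences between the strains under a probe were not tested.

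**Figure D5:**
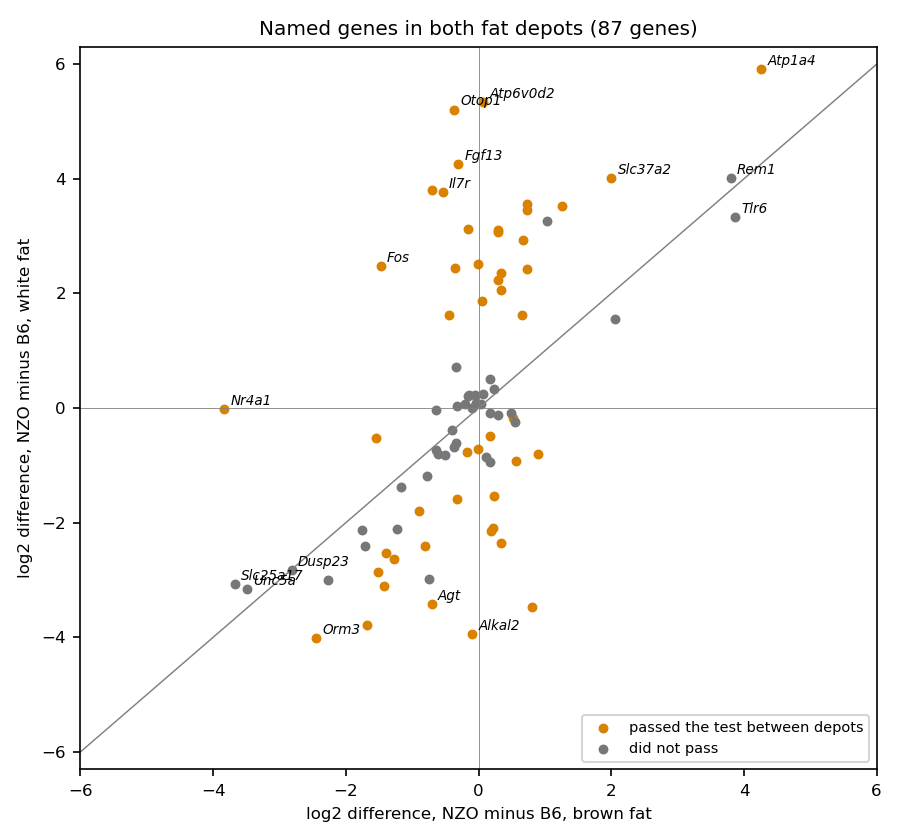
Log2 difference NZO minus B6 in white fat (y axis) against that in brown fat (x axis) for the 87 named genes measured on all 8 white fat arrays; orange genes (48) passed limma's test of the difference between depots and grey ones did not, and the line marks equal differences. Rem1, Dusp23, Unc5a, Slc25a17 and Tlr6 lie near the line, and Atp6v0d2, Otop1, Fgf13 and Alkal2 lie near 0 in brown fat, where all of these but Otop1 were not above background on all arrays of either strain.

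White fat of both strains was held by slides 4 and 6. B6 010 and 011 were on slide 1 without NZO white fat, and NZO 012 was the only white fat array on slide 2. For these arrays slide and strain cannot be told apart, and a fixed slide block takes the strain difference from slides 4 and 6 alone. On slide 6, with NZO 009 and 003 against B6 015, Atp6v0d2 differed by 5.44 and Hoxa5 by -1.54, and on slide 4, with NZO 007 against B6 009, by 5.33 and -2.13. With slide as a fixed block, Atf3 differed by 2.82 (adjusted p = 0.00122) and Oxtr by 3.07 (adjusted p = 0.00678), and 13 named genes lost their call, among them Pla2g5, Adh4, Sult1e1 and Rasd1.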

How the data were processed

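RNA of gonadal white fat was measured on 8 of 24 single-colour arrays. The scans were quantified in Agilent Feature Extraction, version 11.0.1.1 per the file headers but 9.1 per the submitters' processing notes; which applies was not settled. Per the file headers, the deposited intensity had its background removed and its spatial trend corrected by the software, with no scaling between arrays. Deposited flags (other values, per the file headers) mark spots well above background, saturated or outlying. Genes were named through RefSeq by transcript accession for 27656 of 55681 probes and by the file's own name for 28025. Probe positions are those of the files (mm9). Sequences under the probes in NZO were not examined.

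Here the log2 intensity of each probe (432 probes with several spots were averaged, without outlier spots) was taken relative to the array's 75th percentile over probes. Testing required the flag for signal well above background on all 4 arrays of either strain, and each gene was represented by its brightest probe, by the mean of 24 arrays. Strain differences were fitted with limma 3.58.1 (lmFit and eBayes, R 4.3.3) on the 8 arrays, with Benjamini-Hochberg adjustment over 21660 genes and calls under 0.05. The difference between depots was a contrast over 16 arrays in the same tool. All p-values are two-sided. The fit was tested on simulated data. The median SE of a difference was 0.168; the number of arrays limits the precision. A gene flagged above background throughout 1 strain and nowhere in the other has a bound in place of a fold. It sets the brighter strain's mean against a mean over the dimmer strain's arrays, each entering with the probe's own signal or the weakest signal flagged as well above background, whichever is higher. Figures used Python 3.11.15, pandas 2.3.3 and matplotlib 3.10.9.

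The genes named first in each class are the 4 most raised and 4 most lowered (3 and 3 in the adhesion, signalling and enzyme classes) among genes called, above background on all 8 arrays, without overlap of the strains and outside the macrophage and cell cycle lists, plus the largest bound each way and the panel. Some genes are not reported here. Other genes given as examples of a group were chosen after their values were seen. Classes, groups, lists and panel were chosen with earlier results of these data known. Alternatives were the scaling (median, quantile, percentile over spots), normexp background correction, the filter on dim probes, the choice of probe, slide as a block, a fit over all 24 arrays, the deposited values of the series and leaving out arrays. Muscle arrays entered only the fit over 24 arrays and the choice of probe.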

Additional observations from a re-analysis of the deposited data

Results flagged for a closer look

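Values that stood apart from the other arrays of a strain were looked for with Dixon's criterion in 234 groups of 4 values. It flagged 8, leaving out genes not reported here, which is fewer than chance gives at about 1 in 20 groups. Many of the genes were chosen for no overlap of the strains, so that rate may not hold for them. In 7 of the 8 the array was B6 015, each time as the highest B6 array. On it Wif1 read -5.28 (other B6 arrays -7.21 to -6.89, below background on all), Il20rb -0.26 (-1.54 to -1.44), Cadm1 -1.36 (-2.66 to -2.46), Pla2g5 -1.12 (-4.04 to -3.93), Gstm6 2.41 (0.00 to 0.38), Gdf15 -1.38 (-2.78 to -2.65) and Abca1 3.33 (2.98 to 3.03). The mesothelial marker level was 1.21 on B6 015 and 1.77 on B6 011, and its part in these values was not tested. The last was the B cell marker list, at 1.65 on NZO 012 against -0.90 to -0.67 on the other NZO arrays.

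For the named genes below the strain difference in white fat differed from that in brown fat by limma's test over 16 arrays. The values that follow are the difference in white fat minus that in brown fat, in log2 units. Among transcription factors it was above 0, at 3.29 for Atf3, 2.78 for Pknox2, 2.26 for Spi1, 3.95 for Fos, 4.26 for Tbx5 and 3.82 for Nr4a1, and below 0, at -2.33 for Glis3, -0.90 for Hoxa5, -4.63 for Foxj1 and -0.71 for Nr3c1. Among secreted factors it was above 0, at 4.56 for Fgf13, 4.50 for Serpina3f, 2.26 for Ccl2, 6.39 for Wif1, 1.03 for Retn and 3.99 for Fgf21, and below 0, at -1.56 for Orm3, -3.84 for Alkal2, -2.71 for Agt, -2.31 for Rspo3, -1.70 for Rbp4 and -1.48 for Inhbb. Among receptors it was above 0, at 4.30 for Il7r, 2.83 for Stab2, 2.71 for Oxtr and 5.76 for Itgad, and below 0, at -1.34 for Avpr1a, -1.36 for Il20rb, -1.12 for Il17re, -1.48 for Pilrb2, -0.59 for Insr, -0.69 for Ghr and -0.66 for Fgfr1. Among transporters and channels it was above 0, at 1.65 for Atp1a4, 5.26 for Atp6v0d2, 5.58 for Otop1, 2.02 for Slc37a2, 4.79 for Slc27a6, 0.96 for Abcg1 and 2.06 for Kcnk3, and below 0, at -2.68 for Kcnj15 and -4.43 for Slc9b2. Among adhesion molecules it was above 0, at 2.52 for Cadm1, 2.80 for Igsf21 and 1.73 for Igsf6, and below 0, at -1.68 for Cldn22 and -1.26 for Pcdh17. Among signalling regulators it was above 0, at 1.95 for Pde7a and 1.80 for Arhgap25, and below 0, at -1.77 for Gng7. Among enzymes of lipid, steroid and drug metabolism it was above 0, at 2.82 for Pla2g5, 1.70 for Hpgds, 2.0 for Adh4 and 3.19 for Akr1b7, and below 0, at -2.10 for Gstm6 and -4.28 for Ptgds. For Tbx5, Foxj1, Wif1, Itgad, Pilrb2, Slc27a6, Slc9b2, Akr1b7 and Fgf21, which were below background on some white fat arrays, these values do not measure size. The same holds for Spi1, Glis3, Fgf13, Serpina3f, Alkal2, Rspo3, Il7r, Stab2, Atp6v0d2, Pla2g5 and Hpgds, which were not above background on all brown fat arrays of either strain, and for Pknox2, Atp1a4, Fos and Avpr1a, which were so in 1 strain only.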

How the results depend on the processing

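The count of 6762 genes called in white fat (3603 higher, 3159 lower) was within 1.5 times of itself under most alternatives. The exceptions were slide as a fixed block (3877 called, 2266 higher and 1611 lower), NZO 012 and B6 010 both left out (4179, 2331 and 1848; chosen after the data were seen) and median centring, which gave 1539 lower. The block takes the strain difference from slides 4 and 6 alone. Both the block and the smaller set leave fewer residual degrees of freedom. Why the counts fell was not tested. Leaving out single arrays gave 4763 to 6683 called, 2623 to 3592 higher and 2140 to 3091 lower. Of the 98 named genes none changed direction while called under these alternatives. Among the 77 called, 13 lost their call under median centring, 13 with slide as a fixed block, 3 with slide as a random block, 3 with normexp, 2 with quantile normalization, 6 without the filter on dim probes, 7 in the fit over 24 arrays and 3 with the deposited table. The percentile over all spots, also chosen after the data were seen, changed no call of a named gene. Within the slides that held both strains, 42 (slide 6) and 47 (slide 4) of the 98 differences moved by more than the SD between arrays.

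For the difference between depots, 3880 genes were called, against 2957 under median centring and 2913 to 4395 with single arrays left out. White and brown fat share 7 strain-and-number labels. The correlation of same-numbered arrays, as deviations from their group means, ran from -0.08 to 0.40 and exceeded 0.1 in 5 of 7 pairs. Arrays of different numbers were not compared, so this cannot decide whether the numbers pair the samples. The main fit left the pairing out, and with the number as a replicate block 3900 genes were called. Between strains in white fat only the number 009 is shared, so no paired fit was made there. Genes near background are limited by signal, and 322 of the genes tested have only a bound.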

Other observations

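Matrix-associated and lipid-binding proteins were further groups with more higher than lower genes. Of 25 matricellular proteins tested 9 were higher, the macrophage product Spp1 among them, and 2 lower in NZO white fat (median 0.39, against 0.02 over all genes; 11 and 0 under median centring). Ccn5, a Wnt-induced matrix protein, differed by 2.69, SE 0.19, Thbs2, a thrombospondin that restrains vessels, by 1.83, SE 0.19, and Postn, periostin, by 1.62, SE 0.17, while Matn4 (-0.84, SE 0.27) and Sparcl1 (-0.58, SE 0.19) were lower. Of 19 lipid and retinoid binding proteins 7 were higher and 1, Stard6, lower (median 0.35; 8 and 0 under median centring). Fabp3, the heart-type fatty acid binding protein that brown fat also makes, differed by 3.06, SE 0.33 and Rbp7, a retinol binding protein of fat vessels, by 1.79, SE 0.16. The brown adipocyte marker list stood at 1.36 to 1.77 in NZO and -1.34 to -0.40 in B6, and its part in these values was not tested. Of 45 mitochondrial carriers tested 10 were higher and 8 lower (median 0.11), against 16.6% and 14.6% over all genes. The counts were 10 and 4 under median centring, 5 and 3 with slide as a block, and 5 lower without B6 010 or 011. Ucp1, a brown fat marker, Ucp2 (1.36, SE 0.11) and Slc25a24 (0.67, SE 0.11) were among the higher. These genes were chosen after their values were seen.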
